A study of Mus musculus with 8 samples.

Results

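Histone deacetylases remove acetyl groups from histone tails, which is associated with compact and less transcribed chromatin, and inhibitors of these enzymes raise a recurring set of transcripts in cultured cells. Of that set, 10 genes were examined here in mouse hippocampus: Cdkn1a, H1f0, Gsn, Txnip, Clu, Mt1, Mt2, Ccn2, Klf4 and Klf6. They form a list of textbook responders, chosen with earlier results of these data known but with no threshold on their values here. Each was represented by every probe set annotated to that gene alone. This gave 23 probe sets of 9 genes among the 22626 probe sets tested. No probe set was annotated to H1f0, the linker histone whose rise with butyrate is a classic response, so H1f0 was not measured.

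The mice were 12-week-old males of the SCID strain, which lacks mature B and T lymphocytes, and each gave hippocampal RNA for 1 Affymetrix 3' array. The 4 FTY720 mice (replicates 1, 4, 5 and 6) received the drug orally in saline at 1 mg/kg on 3 days, and the 4 vehicle mice (replicates 13 to 16) received saline alone. All 8 mice went through contextual fear conditioning, and the hippocampi were collected 17 hours after the last dose and 1 hour after the test of consolidation. As every mouse was trained and tested, no untrained baseline was part of the comparison. FTY720, known as fingolimod, resembles sphingosine, and cells convert it to a phosphate. The phosphate acts on sphingosine-1-phosphate receptors at the cell surface, and in the nucleus it has been described as an inhibitor of class I histone deacetylases. Setting the 10 genes in FTY720 mice against vehicle mice therefore asks whether transcripts known to respond to deacetylase inhibitors differed at this time point. The arrays measure RNA and neither histone acetylation nor enzyme activity.

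The members do different work in the cell. Cdkn1a (p21) halts the cell cycle by blocking cyclin-dependent kinases. Gsn (gelsolin) severs and caps actin filaments, and in brain it is abundant in oligodendrocytes. Txnip binds thioredoxin and limits glucose uptake, Clu (clusterin) is a secreted chaperone made largely by astrocytes, and Mt1 and Mt2 are metallothioneins that bind zinc and copper. Ccn2 (connective tissue growth factor) is a secreted matrix protein and a marker of the deepest cortical layer in mouse. Klf4 and Klf6 are zinc finger transcription factors.

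The stretch of DNA before the start is shown for 3 members because the induction of CDKN1A by deacetylase inhibitors in human cells depends on GC-rich Sp1 sites near the start, because Gsn had the lowest unadjusted p among the members, and because Mt2 belongs to the gene pair that is best known for control by metals. Each is the 250 bases before the start in RefSeq (GRCm38.p6, plus strand), at chr2:35256109-35256358 for Gsn, chr17:29093519-29093768 for Cdkn1a and chr8:94172368-94172617 for Mt2. Capitals mark the GC box GGGCGG and the metal response element core TGCACNC or TGCGCNC, searched on both strands.
Gsn: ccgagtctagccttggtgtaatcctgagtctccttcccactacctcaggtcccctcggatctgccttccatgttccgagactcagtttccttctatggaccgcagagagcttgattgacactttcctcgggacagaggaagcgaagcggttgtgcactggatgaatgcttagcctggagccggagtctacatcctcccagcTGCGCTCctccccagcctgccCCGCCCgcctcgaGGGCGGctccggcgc
Cdkn1a: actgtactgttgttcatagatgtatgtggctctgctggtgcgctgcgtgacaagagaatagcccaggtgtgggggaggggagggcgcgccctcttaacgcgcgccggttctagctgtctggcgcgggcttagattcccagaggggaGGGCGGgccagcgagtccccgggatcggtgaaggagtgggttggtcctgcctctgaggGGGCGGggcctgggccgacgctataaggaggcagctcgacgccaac
Mt2: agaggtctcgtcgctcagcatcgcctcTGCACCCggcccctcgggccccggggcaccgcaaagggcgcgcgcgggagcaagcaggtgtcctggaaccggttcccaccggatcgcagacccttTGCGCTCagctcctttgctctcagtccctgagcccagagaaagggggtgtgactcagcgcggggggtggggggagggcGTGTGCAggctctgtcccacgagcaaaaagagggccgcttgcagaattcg
The Gsn window held 2 GC boxes and 1 metal response core, the Cdkn1a window 2 GC boxes, and the Mt2 window 3 metal response cores and no GC box. RefSeq gives Cdkn1a 2 starts and Gsn 3. The Cdkn1a window shown belongs to the start inside the gene record and was chosen for its GC boxes, while the window of the other start held 0 of them, and the Gsn window shown is that of the outermost start. RefSeq windows were at hand for 8 of the 10 members, 11 windows in all, of which 8 held a GC box and 4 a metal response core. Of all 32851 windows of this length, 32.7% held a GC box and 21.4% a metal response core. These are matches of letters and not shown to be bound sites. Mt2 (8:94172618-94173567) and Mt1 (8:94178883-94180327) are neighbours on the same strand, with 5315 bases between them.

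The arrays were alike, with medians from 6.68 to 6.72 and no identical pair. Vehicle 15 stood alone on the first principal component (32.3% of the variance) and vehicle 16 on the second (20.2%). The 5' minus 3' difference of the Gapdh control probe sets, lower where RNA is more degraded, averaged -0.95 ± 0.14 in FTY720 mice and -1.20 ± 0.18 in vehicle mice (SD, n = 4 each, two-sided exact permutation p = 0.0571), and was lowest in vehicle 16, at -1.46. With this difference as a covariate, Gsn 1436991_x_at stood at -0.27, its brightest probe set at -0.06 and Ccn2 at 0.54. The covariate was itself uneven between the groups, and its part in these values was not tested. Of 8 measured hippocampal neuron markers, 7 lay above the median level, the exception being Prox1, whose probe set was at 3.29, and both measured blood markers lay below it.

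None of the members reached a limma adjusted p under 0.05. The fit covered all 22626 probe sets, of which 0 (0.0%) reached it, and the lowest adjusted p was 0.483. Among the members the lowest adjusted p was 0.654, for a Gsn probe set. Of the 23 probe sets, 12 had a higher and 11 a lower mean in FTY720 mice, and over all probe sets 54.4% were higher and 45.6% lower. The median log2 difference, FTY720 minus vehicle, was 0.01 for the members and 0.01 for all probe sets. At an unadjusted p under 0.05 there were 3 member probe sets, against 1529 of all probe sets (6.76%). All 3 belonged to Gsn and were lower in FTY720 mice, the direction opposite to induction, where the background share was 2.73% for lower and 4.03% for higher values. Since the 6 Gsn probe sets read the same gene in the same mice, these 3 are not separate observations. None of the 3 kept such a p with the Gapdh difference as a covariate, or without vehicle 15 and 16 together. The groups did not overlap in 1 member probe set, again of Gsn, against 4.38% of all probe sets. Of the 23 probe sets, 15 lay above the median level of all probe sets, 6.70 on the log2 scale, and all 23 were kept.

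**Figure D1:**
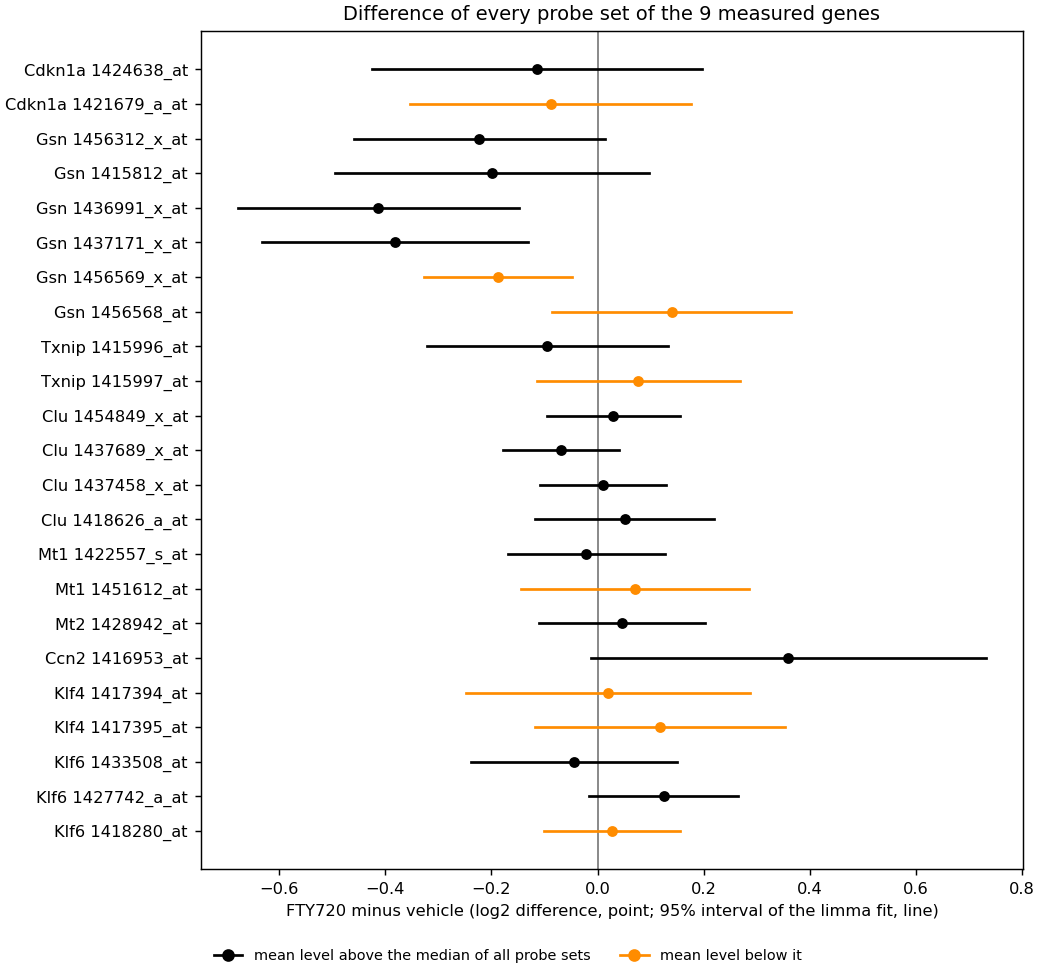
Each row is 1 probe set, with the log2 difference of means, FTY720 minus vehicle, as a point and its 95% interval from the limma fit over all probe sets as a line, for 4 mice per group; colour marks whether the mean level lay above the median of all probe sets. Of the 23 intervals, the 3 that leave out 0 belong to Gsn and lie below it, and Ccn2 has the largest positive difference, 0.36.

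Gsn (2:35256359-35307902) had lower values in FTY720 mice in 5 of its 6 probe sets. The brightest, 1456312_x_at, had log2 levels of 8.97, 9.01, 9.20 and 8.96 in FTY720 mice 1, 4, 5 and 6, against 8.99, 9.47, 9.15 and 9.42 in vehicle mice 13 to 16. Its means were 9.04 ± 0.11 in FTY720 mice and 9.26 ± 0.23 in vehicle mice (SD, n = 4 each), which differed by -0.22 (SE 0.11, limma adjusted p = 0.736). FTY720 5 was the highest of the FTY720 mice and vehicle 13 lay among them, so the groups overlapped. The two-sided exact permutation p of this probe set was 0.2. The difference farthest from 0 was that of 1436991_x_at, with 8.49, 8.56, 8.71 and 8.45 in FTY720 mice against 8.58, 9.06, 9.09 and 9.14 in vehicle mice. It came to -0.41 (SE 0.12, limma adjusted p = 0.654), or 1.33-fold lower in FTY720 mice, with a 95% interval of -0.68 to -0.15. Here 3 vehicle mice stood well above all FTY720 mice, and vehicle 13 lay among the FTY720 mice. The difference was -0.54 without vehicle 13, and -0.26 without vehicle 15 and 16 together. The two-sided exact permutation p was 0.0571, where the smallest p that 4 against 4 mice allow is 0.0286.

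Probe set 1437171_x_at behaved likewise, with 8.48, 8.36, 8.65 and 8.43 in FTY720 mice against 8.50, 9.0, 8.98 and 8.94 in vehicle mice, which differed by -0.38 (SE 0.11, limma adjusted p = 0.679). The other bright one, 1415812_at, gave -0.20 (SE 0.13), and -0.09 without vehicle 14. The 2 remaining probe sets were dim. Of these, 1456569_x_at had 4.44, 4.47, 4.49 and 4.36 in FTY720 mice against 4.50, 4.74, 4.64 and 4.64 in vehicle mice. That is the probe set without overlap, narrowly, between FTY720 5 and vehicle 13, with a difference of -0.19 (SE 0.06). The dimmest, 1456568_at, ran the other way, at 0.14 (SE 0.10), and correlated negatively with each of the other 5 over the mice (Pearson r from -0.61 to -0.33, a description over 8 arrays). The other 5 correlated with each other at r from 0.70 to 0.97. Names ending in _x_at mark probe sets with probes that can also bind other transcripts, and 4 of the 6 Gsn probe sets are of this kind.

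The mean of the 4 bright Gsn probe sets moved with the markers of oligodendrocytes from mouse to mouse. All 9 measured oligodendrocyte markers (Mbp, Mog, Mobp, Cldn11, Mag, Cnp, Ugt8a, Aspa and Mal) were lower in FTY720 mice, each at an unadjusted p under 0.05. Over 12393 genes, 1 probe set each, 6.26% had such a p and 2.7% were lower at it, while 53.5% had a higher mean and 46.5% a lower one. The list's median difference was -0.35. Without vehicle 15 and 16 together, 6 of the 9 had such a p and the median was -0.32, and without vehicle 16 alone 5 of the 9 and -0.29. With the Gapdh difference as a covariate, 3 of the 9 had such a p and the median was -0.18, while the background share for lower values was 1.56%. Per mouse, relative to the mean of all 8, the mean of this list was -0.20, -0.15, -0.06 and -0.35 in FTY720 mice 1, 4, 5 and 6, against -0.07, 0.31, 0.13 and 0.39 in vehicle mice 13 to 16. The mean of the 4 bright Gsn probe sets, taken the same way, was -0.18, -0.18, 0.02 and -0.26 in FTY720 mice, against -0.16, 0.35, 0.14 and 0.29 in vehicle mice. FTY720 6 was lowest, FTY720 5 highest of its group, and vehicle 13 lowest of its group on both. In vehicle 15 the bright Gsn probe sets differed from each other. There 1436991_x_at and 1437171_x_at stood at 0.33 and 0.32, but 1456312_x_at and 1415812_at at 0.01 and -0.11. The log2 of the summed signal of the list ranged from 14.39 to 14.54 in FTY720 mice and from 14.54 to 14.88 in vehicle mice, and its dimmest marker, Mog, had a mean level of 7.48, so none was near the lower end of the scale. Their part in the Gsn difference was not tested, and in whole tissue fewer cells of a type and less RNA per cell cannot be told apart. The lower level of myelin genes was known when Gsn was examined.

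**Figure D2:**
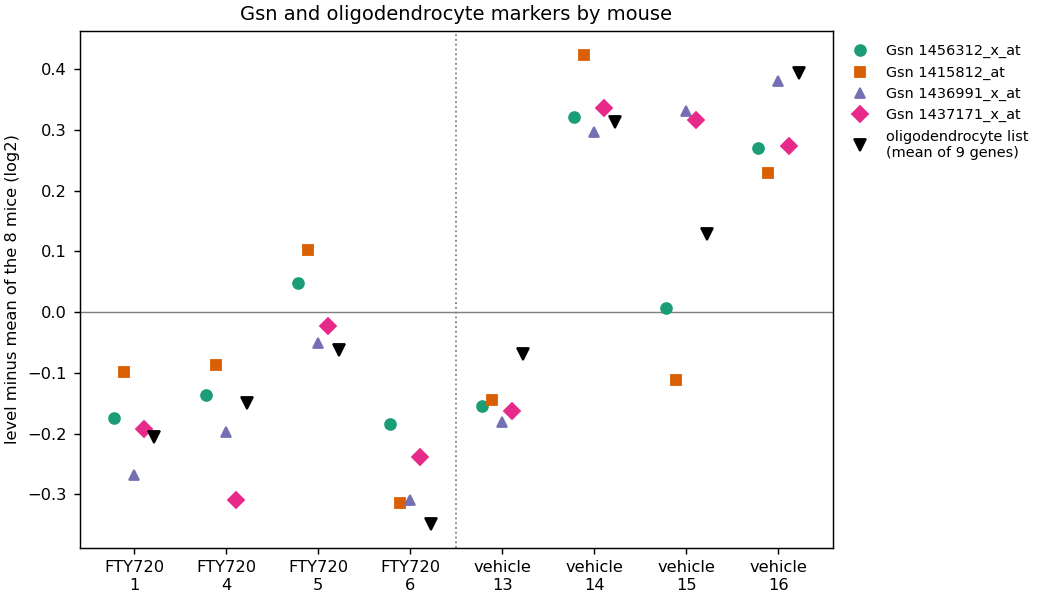
Log2 level minus the mean of the 8 mice, for the 4 brighter Gsn probe sets and for the mean of 9 oligodendrocyte markers (black triangles), with the FTY720 mice left of the dotted line and the vehicle mice right of it. Vehicle 14 and 16 are high on Gsn and on the marker list, and vehicle 13 sits with the FTY720 mice.

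Of 12392 other genes, 1 probe set each, those whose levels were most like the brightest Gsn probe set over the 8 mice were Ccne1 (Pearson r = 0.975, Spearman rho = 0.976), Sh3glb1 (r = 0.973, rho = 0.976) and Anln (r = 0.965, rho = 0.952). They were selected for the size of r, so r is a description here. Without the 2 mice farthest from the median of Gsn, r was 0.915, 0.920 and 0.931. Anln encodes anillin, a cytoskeletal protein found in myelin, and differed by -0.23 (SE 0.11). Of the gelsolin family beside Gsn, 6 of 6 genes were measured (Capg, Vil1, Scin, Avil, Svil and Flii), 3 higher and 3 lower, none at an unadjusted p under 0.05, with a median difference of 0.00.

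Ccn2 (10:24595442-24598683) had the largest positive difference of the members. Its single probe set had log2 levels of 8.46, 8.68, 8.46 and 8.47 in FTY720 mice 1, 4, 5 and 6, against 8.41, 7.98, 7.69 and 8.56 in vehicle mice 13 to 16. The FTY720 mice lay close together, vehicle 14 and 15 were low, and vehicle 13 and 16 were at the level of the FTY720 mice. The means were 8.52 ± 0.11 in FTY720 mice and 8.16 ± 0.40 in vehicle mice (SD, n = 4 each), and the difference was 0.36 (SE 0.17, 1.28-fold, limma adjusted p = 0.732), with a 95% interval of -0.01 to 0.73. Its unadjusted p was 0.0566 in the limma fit, and its two-sided exact permutation p was 0.2. The difference was 0.20 without vehicle 15 and 0.30 without vehicle 14, with an unadjusted p above 0.05. It was 0.44 without vehicle 13, 0.50 without vehicle 16, 0.33 without vehicle 15 and 16 together and 0.54 with the Gapdh covariate, each with an unadjusted p under 0.05 and none under 0.05 after adjustment.

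Both measured markers of cortical layer 6b, of 4 listed, had higher means in FTY720 mice, Cplx3 by 0.30 (SE 0.18) and Moxd1 by 0.24 (SE 0.12), while Nxph4 and Drd5 were not measured. Cplx3, a complexin of presynaptic terminals, had 6.93, 6.88, 6.77 and 6.94 in FTY720 mice, against 6.90, 6.23, 6.17 and 7.04 in vehicle mice. Vehicle 14 and 15 were thus low in Cplx3 as in Ccn2. Moxd1 was lowest in vehicle 16 instead, at 7.17. The log2 summed signal of the pair ranged from 8.27 to 8.54 in FTY720 mice and from 7.96 to 8.32 in vehicle mice. Vehicle 15, the lowest mouse in Ccn2, was the highest in markers of thalamus (1.46 above the mean of all mice) and striatum (1.18). All 5 measured thalamus markers of 6 listed were lower in FTY720 mice, with log2 summed signals from 9.48 to 9.76 in FTY720 mice and from 9.90 to 11.18 in vehicle mice. All 5 measured striatum markers of 8 listed were lower as well, from 9.88 to 10.07 in FTY720 mice and from 9.90 to 11.95 in vehicle mice, with a median difference of -0.41. This striatum median was -0.15 without vehicle 15 and 0.03 without vehicle 15 and 16 together, so its direction turned without them. The thalamus median was -0.81, or -0.51 without vehicle 15. The part of layer 6b and these regions in the Ccn2 difference was not tested.

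**Figure D3:**
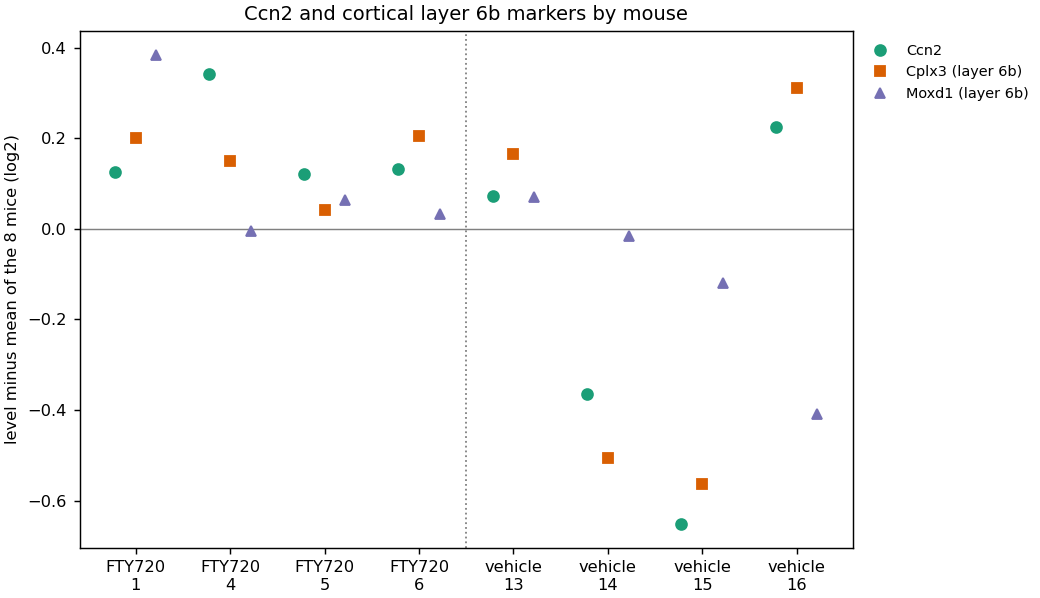
Log2 level minus the mean of the 8 mice for Ccn2 and for the layer 6b markers Cplx3 and Moxd1, with FTY720 mice left of the dotted line and vehicle mice right of it. Ccn2 and Cplx3 are both lowest in vehicle 14 and 15.

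The genes most like Ccn2 over the 8 mice were Sinhcaf (r = 0.986, rho = 0.929), Igdcc4 (r = 0.977, rho = 0.881) and Ssna1 (r = 0.958, rho = 0.810), with r of 0.754, 0.778 and 0.812 without the 2 mice farthest from the median of Ccn2. The CCN family and targets of the YAP and TEAD factors, which control Ccn2 in many cells, were measured in 9 of 9 genes. Of these, 5 were higher and 4 lower, with a median difference of 0.01, which was -0.00 without vehicle 15 and -0.06 without vehicle 15 and 16 together. Ccn3 had an unadjusted p under 0.05. Ccn3, a CCN protein of neurons, had 11.22, 10.94, 11.16 and 11.15 in FTY720 mice against 10.70, 10.96, 10.31 and 10.60 in vehicle mice, which differed by 0.48 (SE 0.12, limma adjusted p = 0.593). FTY720 4 lay just under vehicle 14, and without vehicle 15 and 16 the difference was 0.29. Ccn1, the close relative of Ccn2, stood at 0.21 (SE 0.18). It was 0.406 without vehicle 16 and 0.405 without vehicle 15 and 16 together, but 0.104 without vehicle 14. Without vehicle 16, and without both mice, 2 genes of the list were higher at an unadjusted p under 0.05. The shares of all genes higher at it were then 3.11% and 2.67%.

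Cdkn1a (17:29090979-29100722) had a lower mean in FTY720 mice in both probe sets. The brighter, 1424638_at, had 7.35, 7.51, 7.30 and 7.42 in FTY720 mice, against 7.31, 7.35, 7.37 and 8.0 in vehicle mice. Vehicle 16 alone stood high, and the other 7 mice lay between 7.30 and 7.51. The means were 7.39 ± 0.09 in FTY720 mice and 7.51 ± 0.33 in vehicle mice (SD, n = 4 each), a difference of -0.11 (SE 0.14, limma adjusted p = 0.896), which was 0.05 without vehicle 16. The dimmer probe set gave -0.09 (SE 0.12), and 0.01 without vehicle 16. Its genes most alike, Rgs11 (r = 0.981, rho = 0.810), Egr2 (r = 0.980, rho = 0.690) and Rgs4 (r = 0.976, rho = 0.905), rested on few mice, since r was 0.518, 0.234 and 0.521 without the 2 farthest.

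Gadd45a, a growth arrest gene that shares regulators with Cdkn1a, was chosen after its values were seen. It was also highest in vehicle 16, at 6.84. The other vehicle mice lay between 5.65 and 6.09 and the FTY720 mice between 5.85 and 6.20. Of 12 listed p53 targets beside Cdkn1a, 10 were measured, 7 higher and 3 lower, with a median of 0.07. The 1 at an unadjusted p under 0.05 was Trp53inp1, a stress-induced partner of p53, at 0.23 (SE 0.07). The median was 0.02 without vehicle 15, and without vehicle 15 and 16 together, or with the Gapdh covariate, 0 genes had such a p. The 6 cyclin-dependent kinase inhibitors beside Cdkn1a, Cdkn1b, Cdkn1c and Cdkn2a to Cdkn2d, were 3 higher and 3 lower, none at an unadjusted p under 0.05, with a median of -0.00.

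The metallothioneins were measured with little spread. Mt1 probe set 1422557_s_at had 12.44, 12.56, 12.43 and 12.42 in FTY720 mice, against 12.44, 12.60, 12.35 and 12.54 in vehicle mice, which differed by -0.02 (SE 0.07). Mt2 (1428942_at) had 11.52, 11.61, 11.44 and 11.60 in FTY720 mice, against 11.47, 11.56, 11.35 and 11.61 in vehicle mice, which differed by 0.05 (SE 0.07). The FTY720 values lay inside the range of the vehicle values for both. The 95% intervals ran from -11.1% to 9.20% for Mt1 and from -7.38% to 15.0% for Mt2 as a change in signal, so changes beyond these bounds lay outside the intervals, while smaller ones were not resolved. Vehicle 15 was lowest for both genes, and over the 8 mice they correlated at r = 0.74 (rho = 0.60, a description over the same arrays). A name ending in _s_at marks probes shared by several transcripts, so part of the Mt1 signal could come from a near-identical family member. The dim second probe set of Mt1, 1451612_at, gave 0.07 (SE 0.10). Among Mt3, Mt4, the transcription factor gene Mtf1 and zinc transport genes, 5 of 6 were measured, 3 higher and 2 lower. None had an unadjusted p under 0.05, and Mt3, the neuronal metallothionein, stood at 0.07 (SE 0.06).

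Clu (14:65968483-65981548) varied little between mice. Its brightest probe set, 1454849_x_at, had 12.97, 12.98, 12.93 and 12.90 in FTY720 mice, against 12.89, 13.03, 12.84 and 12.91 in vehicle mice, which differed by 0.03 (SE 0.06) with a 95% interval of -6.42% to 11.4%. The others gave -0.07 (SE 0.05), 0.01 (SE 0.05) and 0.05 (SE 0.08). The probe set at -0.07, 1437689_x_at, correlated negatively with the other 3 (r from -0.40 to -0.19), which correlated with each other at 0.80 to 0.95. Astrocyte markers, from cells that make much of the Clu RNA, were measured in 9 of 9 genes, 3 higher and 6 lower, with a median of -0.02. Aqp4, the water channel of astrocyte endfeet, was the 1 of them at an unadjusted p under 0.05, at -0.23 (SE 0.07). Of 5 other secreted chaperones and apolipoproteins, Serpina3n, an acute-phase protease inhibitor of astrocytes, stood at 0.29 (SE 0.12) and Apod, a lipid carrier of glia, at -0.19 (SE 0.08), both at an unadjusted p under 0.05. Without vehicle 15 the list had 0 higher and 1 lower gene at that level. Leaving out vehicle 15 and 16 together gave 0 higher and 2 lower. Without vehicle 16, or with the Gapdh covariate, there were 0 in either direction.

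Txnip (3:96557957-96561857) gave differences of opposite sign. The brighter probe set, 1415996_at, had 8.38, 8.34, 8.23 and 8.05 in FTY720 mice, against 8.19, 8.61, 8.33 and 8.25 in vehicle mice, or -0.09 (SE 0.10). The dimmer, 1415997_at, gave 0.08 (SE 0.09), and the pair correlated at r = 0.04 over the 8 mice, so they gave no shared pattern. Arrdc4, an arrestin-domain gene that responds to glucose with Txnip, had 6.27, 6.38, 6.22 and 6.38 in FTY720 mice, against 6.20, 6.15, 6.17 and 6.17 in vehicle mice. All 4 FTY720 mice lay above all vehicle mice, as groups did without overlap in 4.49% of all genes, with a difference of 0.14 (SE 0.05, limma adjusted p = 0.699). It was 1 of 6 measured genes of 8 listed for the alpha-arrestins and the thioredoxin system, of which 5 were higher and 1 lower, with a median of 0.03. With the Gapdh covariate, or without vehicle 15 and 16 together, 0 of the 6 had an unadjusted p under 0.05.

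Klf4 (4:55527137-55532475) was dim, with both probe sets below the median level. The brighter, 1417394_at, had 6.34, 6.46, 6.65 and 6.52 in FTY720 mice, against 6.61, 6.56, 6.09 and 6.63 in vehicle mice, which differed by 0.02 (SE 0.12), or by -0.11 without vehicle 15, its lowest mouse. The other gave 0.12 (SE 0.11). Klf6 (13:5861489-5870393) gave -0.04 (SE 0.09), 0.12 (SE 0.06) and 0.03 (SE 0.06) in 3 probe sets. The one at 0.12, 1427742_a_at, had 7.68, 7.84, 7.93 and 7.71 in FTY720 mice, against 7.71, 7.63, 7.66 and 7.66 in vehicle mice, where FTY720 4 and 5 stood above all vehicle mice and the other 2 did not. Its limma adjusted p was 0.748. The brightest, 1433508_at, was nearly constant in FTY720 mice, at 7.81 ± 0.02, and spread in vehicle mice, at 7.85 ± 0.19 (SD, n = 4 each), with vehicle 15 highest at 8.11 and vehicle 14 lowest at 7.65.

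Of 11 other Krueppel-like factors, 10 were measured, 8 higher and 2 lower, with a median of 0.09. Klf2, a factor of endothelial cells and neurons, stood at 0.37 (SE 0.15) and Klf15, a glucocorticoid-responsive factor, at 0.20 (SE 0.08), both at an unadjusted p under 0.05. The background share for higher values was 3.57%. Klf2 was 0.20 without vehicle 15, the mouse with the lowest mean of this list, -0.25, where the other 7 mice lay between 0.00 and 0.06. Without vehicle 15 the list had 1 higher and 1 lower gene at that level and a median of 0.06. Without vehicle 15 and 16 together it had 1 higher, 0 lower and a median of 0.04. Leaving out vehicle 16 alone gave 2 higher, 0 lower and a median of 0.111. The Gapdh covariate gave 2 higher, 0 lower and a median of 0.145. Vehicle 15 was also low in endothelial and mural markers, at -0.15, as was FTY720 6, at -0.15. These markers were measured in 8 of 9 genes, 3 higher and 5 lower, 1 of them lower at an unadjusted p under 0.05, with a median of -0.03. Their log2 summed signal ranged from 11.79 to 12.04 in FTY720 mice and from 11.76 to 12.02 in vehicle mice, and their part in the values of Klf2 and Klf4 was not tested.

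**Figure D4:**
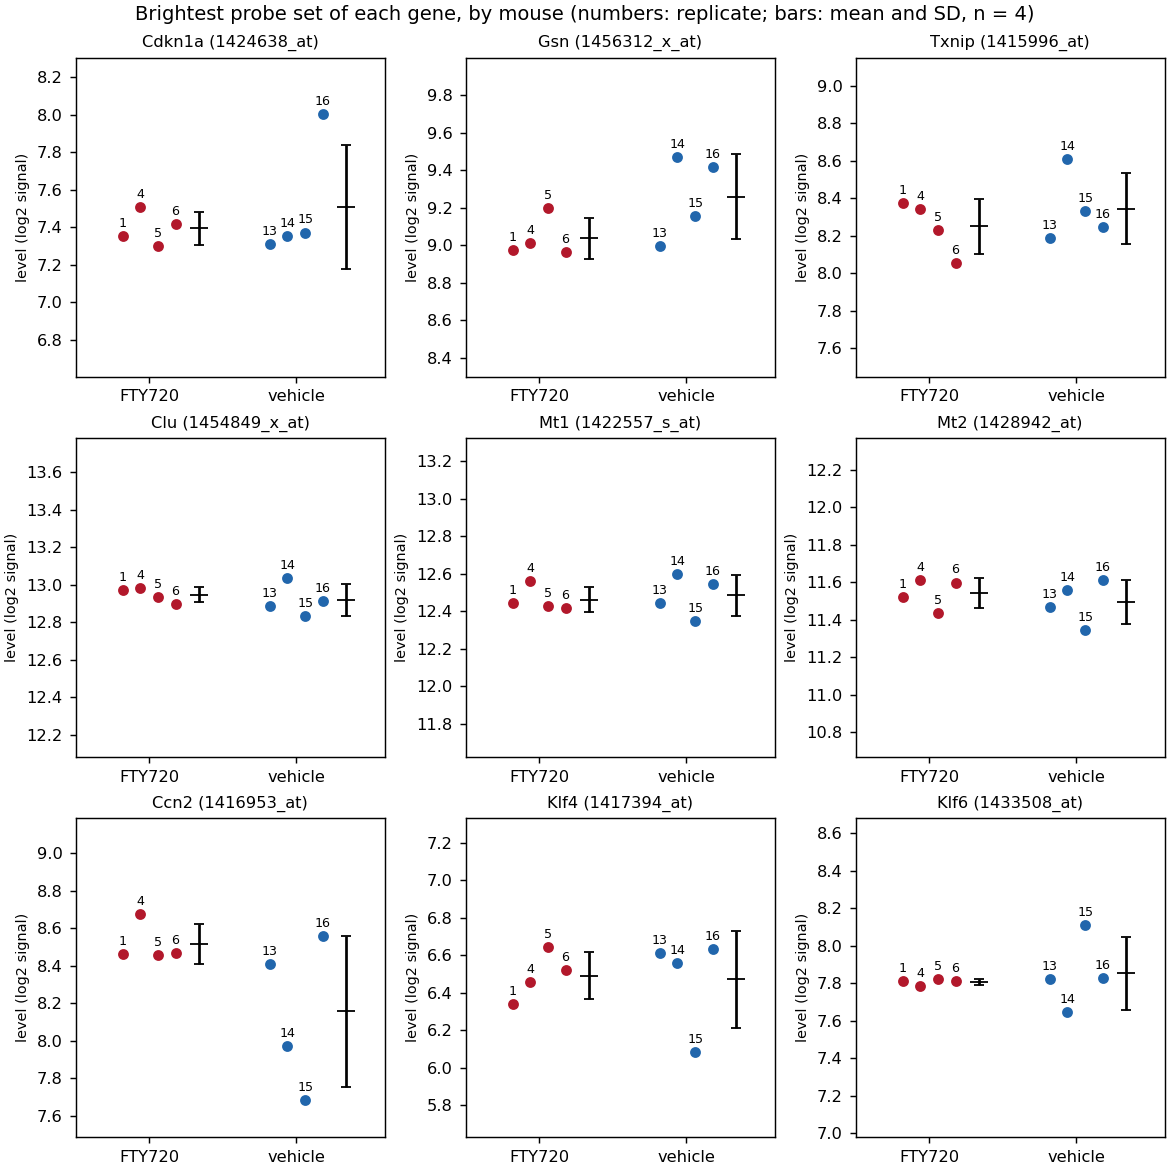
Log2 level of the brightest probe set of each measured member in every mouse, FTY720 (red) left of vehicle (blue), numbered by replicate, with mean and SD of 4 mice beside them; all panels span the same number of log2 units. Groups overlap in all 9 panels, with Cdkn1a high in vehicle 16, Ccn2 low in vehicle 14 and 15, and Klf4 low in vehicle 15.

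A second list held 15 further genes known to be raised by deacetylase inhibitors in other cells, all of them measured. Of these, 5 had higher and 10 lower means in FTY720 mice, with a median of -0.04. The list held 3 higher and 2 lower genes with an unadjusted p under 0.05, where the background shares over all genes were 3.57% and 2.7%, and none passed adjustment. Tsc22d3, the glucocorticoid-induced leucine zipper, had 9.63, 10.01, 9.73 and 9.90 in FTY720 mice, against 9.46, 9.51, 9.51 and 9.59 in vehicle mice, all 4 FTY720 mice above all vehicle mice, with a difference of 0.30 (SE 0.08, limma adjusted p = 0.603). Sat1, which starts polyamine breakdown, had 8.99, 9.13, 9.0 and 8.95 in FTY720 mice, against 9.21, 9.23, 9.15 and 9.34 in vehicle mice. All 4 FTY720 mice lay below all vehicle mice, with a difference of -0.21 (SE 0.06, limma adjusted p = 0.654). Over all genes, groups did not overlap in 4.49%. Both separations were narrow, between FTY720 1 and vehicle 16 for Tsc22d3 and between FTY720 4 and vehicle 15 for Sat1. The third by p was Hspa1b, an inducible heat shock protein, at 0.36 (SE 0.13). The higher values of Tsc22d3 and Hspa1b were known when this list was drawn up. Without vehicle 15 and 16 together, the list had 1 higher and 1 lower gene at that level. With the Gapdh covariate it had 0 higher and 1 lower, and its median was 0.05, of opposite sign.

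Glucocorticoid-responsive genes, which overlap in regulation with Mt1, Mt2, Klf15 and Tsc22d3, were measured in 11 of 11 genes, 8 higher and 3 lower, with a median of 0.07. This list was drawn up with earlier results of these data known. At an unadjusted p under 0.05, 4 were higher. Over all genes, 3.57% were higher at it and 53.5% had a higher mean. The lowest p was that of Fkbp5, which restrains the glucocorticoid receptor, at 0.35 (SE 0.09), while Mt1 and Mt2 had no such p. Without vehicle 15, 4 were higher and 1 lower at that level, and the median was 0.02. Without vehicle 16 there were 4 higher and 0 lower with a median of 0.28. Without both mice there were 3 higher and 0 lower with a median of 0.12. With the Gapdh covariate there were 1 higher and 0 lower with a median of 0.18. Over all genes, the shares higher at that level were 3.43% without vehicle 15 and 3.11% without vehicle 16. They were 2.67% without both and 2.34% with the covariate. Of the linker histones beside H1f0, 3 of 6 were measured, with H1f10 at 0.11 (SE 0.07), H1f2 at 0.08 (SE 0.09) and H1f4, near the lower end of the scale at a mean level of 2.80, at -0.12 (SE 0.07). None had an unadjusted p under 0.05.

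**Figure D5:**
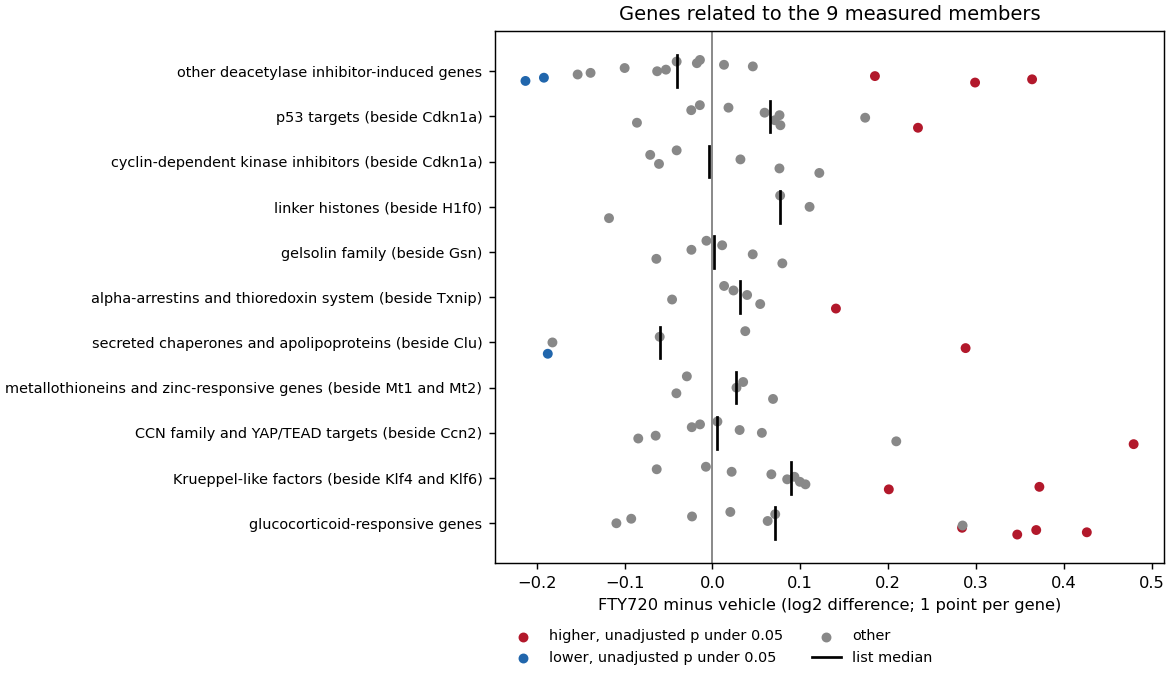
Each point is the log2 difference of 1 gene, FTY720 minus vehicle, for 11 lists of genes related to the members, with the list's median as a black bar and colour for an unadjusted p under 0.05. The medians lie between -0.06 and 0.09, and single genes such as Ccn3 and Fkbp5 lie far from their list's median.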

How the data were processed

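The authors deposited log2 values per probe set for 8 Affymetrix 3' arrays, 1 per mouse, with 100 ng of RNA labelled for each array, per the labels' protocols. That the scale is log2 was read from the values, which run from 2.31 to 14.5 with near-equal medians. The tools listed by the submitters' processing notes are Affymetrix Expression Console, RMA and MAS5, with no word on which made these values. The labels carry no scan date, and no batch was tested.

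Of 22690 probe sets, 64 controls were set aside. Of the rest, 20380 had 1 gene symbol in the platform annotation. All 22626 were fitted with limma 3.58.1 in R 4.3.3 (lmFit, eBayes, no covariate, no filter), with Benjamini-Hochberg adjustment over all of them. SE and 95% intervals are those of the moderated fit, and exact permutation tests ran over the 70 assignments of the mice. Other genes were read from their brightest probe set. The fit was tested on simulated data with independent noise for each probe set and array. That simulation left out variation shared by many probe sets, so it does not show how the fit handles such variation. The number of mice limits the precision. The members and lists were chosen with earlier results of these data known. Named were every member probe set and up to 3 genes of smallest unadjusted p per list. The 3 genes most alike were searched for each bright member and named for Gsn, Ccn2 and Cdkn1a only. Gadd45a was chosen after its values were seen. Gene positions and promoter sequences are those of RefSeq (GRCm38.p6).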

Additional observations from a re-analysis of the deposited data

Results flagged for a closer look

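Within the 46 groups of 4 values that the 23 probe sets give, 8 held 1 mouse that stood apart from the other 3 in Dixon's test, where chance flags about 1 in 20. Probe sets of 1 gene share their mice, so these are not separate. Among FTY720 mice it was replicate 4 each time, at 8.68 for Ccn2 (others 8.46 to 8.47), at 12.56 for Mt1 1422557_s_at (others 12.42 to 12.44) and at 7.79 for Klf6 1433508_at (others 7.81 to 7.82). Among vehicle mice, replicate 13 stood low for Gsn, at 8.58 in 1436991_x_at (others 9.05 to 9.14) and 8.50 in 1437171_x_at (others 8.94 to 9.0). Replicate 16 stood high for Cdkn1a 1424638_at, at 8.0 (others 7.31 to 7.37). Replicate 15 stood low for Klf4 1417394_at, at 6.08 (others 6.56 to 6.63), and replicate 14 high for Clu 1437458_x_at, at 12.81 (others 12.67 to 12.69).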

How the results depend on the processing

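No adjusted call was made over all probe sets or among the members in the limma fit or in any of 15 alternatives. No paired analysis was possible because the groups share no replicate numbers. The 1529 probe sets at an unadjusted p under 0.05 became 823 with 1 probe set per gene and 969 above the median level, where fewer were tested, and 948 with the Gapdh covariate. Leaving out 1 mouse gave 1266 to 1838. The 3 member probe sets at that level became 0 of 9 with 1 probe set per gene, since the brightest Gsn probe set is not among the 3. With the covariate, and without vehicle 15 and 16 together, none of these 3 Gsn probe sets was at that level, and the count was 1 in each case, Ccn2, higher in FTY720 mice. When 1 mouse was left out the count was 3 to 5, with 5 without vehicle 13. Differences that changed sign were all small in the limma fit. With the covariate they stood at 0.11 and 0.025 for Cdkn1a 1424638_at and 1421679_a_at, -0.002 for Clu 1437458_x_at, and 0.008 and -0.008 for Mt1 1422557_s_at and 1451612_at. Without vehicle 15 and 16 together they stood at 0.064 and 0.004 for the same Cdkn1a probe sets, -0.061 for Txnip 1415997_at, -0.013, -0.023 and -0.028 for Clu 1454849_x_at, 1437458_x_at and 1418626_a_at, -0.094 for Klf4 1417394_at, and 0.075 and -0.027 for Klf6 1433508_at and 1418280_at. With array weights Klf4 1417394_at stood at -0.054. When 1 mouse was left out, the ranges that crossed 0 were -0.18 to 0.051 and -0.16 to 0.014 for Cdkn1a, -0.006 to 0.041 and -0.004 to 0.104 for Clu 1437458_x_at and 1418626_a_at, -0.066 to 0.018 and -0.013 to 0.156 for Mt1, -0.005 to 0.085 for Mt2, -0.11 to 0.073 for Klf4 1417394_at and -0.114 to 0.043 for Klf6 1433508_at. The cause of these changes was not tested. In the other 11 probe sets, among them all 6 of Gsn and that of Ccn2, no alternative changed the sign. A kept sign could still go with a value near 0, as Gsn 1415812_at stood at -0.003 (SE 0.163) with the covariate.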
